A study of Saccharomyces cerevisiae with 10 samples.

Results

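The iron uptake regulon of budding yeast was followed through 10 of its genes in the high and low subpopulations that form when cells are moved onto proline. The genes were chosen by name from the 7252 genes of the count table: the regulators AFT1 and AFT2 and 8 of their target genes, FIT1, FIT2, FIT3, FET3, FTR1, ARN1, SIT1 and FTH1. All 10 were found, and all 10 passed the filter on low counts. Cells of a BY4741 strain made prototrophic and carrying sfGFP under the pRPL28 promoter (pRPL28 GFP) were grown for 4 h in rich medium (YPD), washed and held for 1 h in nitrogen-limited medium with 0.8 mM proline (NLIM-PRO). Gates on scatter were set to leave out doublets and budding cells. The cells were then sorted by their GFP signal and side scatter, giving the high and low fractions, and the mRNA of each was sequenced. In fractions sorted at a later time, the paper found mostly dividing mother cells in high and mostly daughters without bud scars in low. High and low cells therefore share strain, marker, medium and time, and differ in the sort, which itself rests on the output of a ribosomal protein gene promoter.

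There were 5 high libraries (H1_2609, H2_2609, H1_2709, H2_2709 and H_2909) and 5 low libraries, of which the study kept L1_2609, L2_2709 and L_2909 and left out L2_2609 and L1_2709 after a principal component analysis. Tests below used these 8 libraries, and values of the 2 left-out libraries are given beside them. Library totals were 22167864 to 27752702 counts in high, 18977794 to 23644299 in the 3 low libraries used, and 15879779 and 21503922 in the left-out ones. The low libraries had 983 to 1552 genes at 0 counts, against 383 to 511 in high, but only 28 to 47 genes with 1 to 9 counts, against 275 to 345 in high. The iron uptake genes lay above that range, the lowest being 241 counts of FIT1. Counts are reads without molecular identifiers, so this does not tell how many molecules lay behind them. The labels do not say which libraries came from separate cultures, so p-values measure the spread between libraries, part of which may be technical. Of 8 genes listed under G2 and M phase, all 8 were lower in low. Summed, they were at 129 to 165 CPM in the low libraries used, 138 to 203 in left-out ones and 972 to 1333 in high. CPM are counts scaled to library size by TMM factors. CLB2, a mitotic cyclin, was at 0 in L2_2609 and L2_2709. Of 8 genes of daughter cells and early G1, DSE1, DSE2 and CTS1 were higher and EGT2 lower in low, and their summed level was 680 to 1167 CPM in high, 2168 to 2823 in the low libraries used and 1600 to 2168 in the left-out ones. The paper names HOF1, CHS2, CDC5, BUD4, DBF2, SPO12 and HCM1 as higher in high from these same libraries. It likewise names DSE1 and DSE2 as higher in low. For those genes the differences repeat the paper's result and are no separate check of the sort. The part of cell cycle position in the iron results was not tested. In sorted bulk samples, more cells expressing a gene and more RNA of it per cell cannot be told apart.

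Yeast takes up iron mainly through genes that the transcription factors Aft1 (also named Rcs1) and Aft2 switch on when iron-sulphur cluster synthesis signals too little iron. Fit proteins hold siderophores, the iron carriers of other microbes, in the cell wall, and Arn-type transporters bring the loaded siderophores into the cell. Reduced iron enters instead through Fet3, a copper-dependent oxidase, and its partner permease Ftr1 at the plasma membrane, while Fth1 works in the membrane of the vacuole.

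Aft1 and Aft2 bind sites with the core letters CACCC, most often within GCACCC or TGCACCC. These letters were searched on both strands of the 500 bases before each start codon in the R64 reference genome of RefSeq; the shorter motifs are contained in the longer ones. GCACCC was present before 8 of 8 target genes, and before 7.63% of the 5979 genes with such a window. TGCACCC was present before 7 of 8, all but FTH1, and before 2.32% of all genes. CACCC was also before 8 of 8, and before 33.5% of all genes. None of the 3 motifs occurred in the windows of AFT1 and AFT2. FIT2 had 5 matches to GCACCC, FIT1 and FIT3 had 3 each, FET3 and FTR1 had 2 each, and ARN1, SIT1 and FTH1 had 1 each. A match is a match of letters and was not shown here to be bound. The lines that follow show 1 window of 40 bases for each target, since these letters are what the genes share outside expression, and for ARN2 and CCC2, iron genes outside the 10 whose levels are given further on. All read 5′ to 3′ on the strand of the gene. Capitals mark the match at the centre of the window, GCACCC, or GGGTGC where it lies on the other strand. The FIT2 window begins with another GCACCC, left in small letters.
FIT1 (chrIV:1505060-1505099, minus strand): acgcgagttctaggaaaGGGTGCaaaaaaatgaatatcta
FIT2 (chrXV:1059266-1059305, plus strand): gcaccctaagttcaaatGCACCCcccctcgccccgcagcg
FIT3 (chrXV:1061217-1061256, minus strand): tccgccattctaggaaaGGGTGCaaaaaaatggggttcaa
FET3 (chrXIII:388555-388594, plus strand): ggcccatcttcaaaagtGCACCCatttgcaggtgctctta
FTR1 (chrV:461892-461931, minus strand): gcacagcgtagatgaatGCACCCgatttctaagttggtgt
ARN1 (chrVIII:21208-21247, minus strand): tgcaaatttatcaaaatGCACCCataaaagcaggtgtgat
SIT1 (chrV:27452-27491, plus strand): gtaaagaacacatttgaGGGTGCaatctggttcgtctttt
FTH1 (chrII:634951-634990, plus strand): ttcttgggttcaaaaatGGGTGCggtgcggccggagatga
ARN2 (chrVIII:10638-10677, minus strand): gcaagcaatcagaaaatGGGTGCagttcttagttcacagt
CCC2 (chrIV:1005368-1005407, plus strand): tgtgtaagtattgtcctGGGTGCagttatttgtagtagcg

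The windows of FIT1 and FIT3 are alike beyond the motif. They share an unbroken stretch of 25 bases, at chrIV:1505068-1505092 and chrXV:1061225-1061249, which begins 192 and 194 bases before the start codons.
FIT1 and FIT3, shared stretch: ttctaggaaaGGGTGCaaaaaaatg
Among the 28 pairs of target genes the next longest shared stretch was 10 bases and the median 9. FIT2 and FIT3 are neighbours on chromosome XV that run towards each other, with 448 bases between them (FIT2 at 1059531-1059992, FIT3 at 1060441-1061055). FIT1, ARN1 and SIT1 lie 27033, 19087 and 27656 bases from the nearer end of their chromosomes. None of the 10 genes overlaps another annotated gene, and of all words of 75 bases in them only 90 of 1513 in FIT1 occur more than once in the genome, all of them repeats within FIT1 itself.

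Levels between genes were compared per kilobase of gene length. In the high subpopulation FET3 was the most abundant of the 10, at 193 CPM per kb, ahead of FIT3 at 149 and FTH1 at 126. FIT2 followed at 66.8 CPM per kb, then AFT2 at 51.8, FTR1 at 49.0, SIT1 at 45.6 and AFT1 at 45.3. ARN1 stood at 31.7 and FIT1, the lowest, at 12.7 CPM per kb. The library ranges of neighbours in this order overlapped, except between FTH1 and FIT2, between AFT1 and ARN1 and between ARN1 and FIT1. In the 3 low libraries the top 4 kept this order, at 360 CPM per kb for FET3, 247 for FIT3, 167 for FTH1 and 112 for FIT2. FET3 transcripts thus outnumbered those of FTR1 per length in both subpopulations, although the proteins work as a pair.

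**Figure D1:**
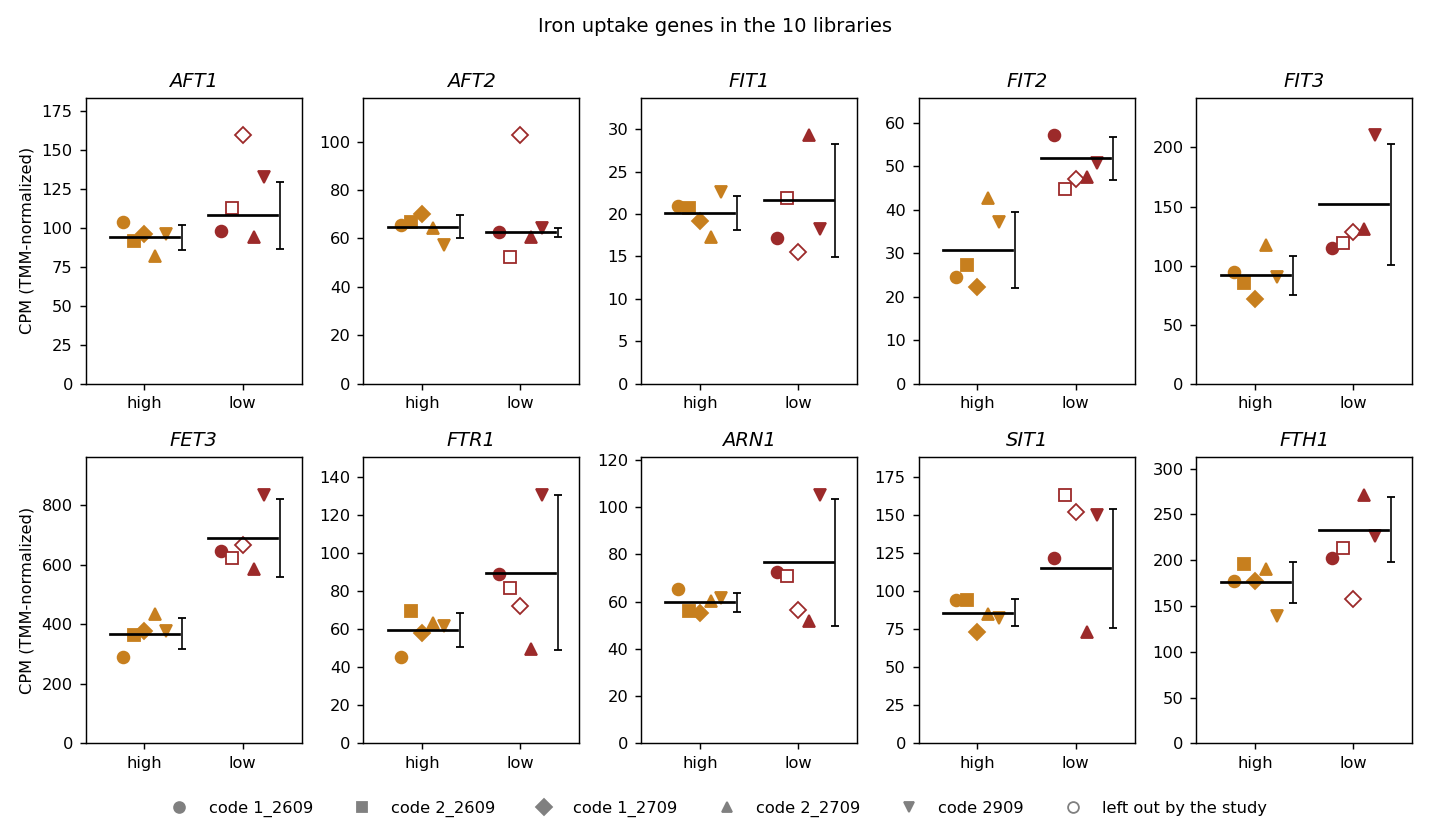
TMM-normalized CPM (vertical axes, starting at 0) of the 10 iron uptake genes in each high and low library; marker shapes show the code in the library's title, hollow markers the 2 libraries left out by the study, and the lines the mean with bars of 1 SD over the 5 high and the 3 low libraries used. FET3 lies between 289 and 434 CPM in high and between 585 and 835 CPM in all low libraries, whereas AFT2 and FIT1 overlap.

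Low was compared with high to ask whether the regulon differs between the growing and the quiescent state that the study assigns to the fractions. Of the 10 genes, 1 was called, with an adjusted p-value under 0.05 in edgeR's quasi-likelihood test: FET3, which was 1.88-fold higher in low. Of all 6492 genes tested, 5.16% were called, 0.832% as higher and 4.33% as lower in low. The log2 fold change was above 0 in 9 of the 10 genes and in 8 of the 8 targets, against 47.1% of all genes tested. The median was 0.42 over the 10 genes, 0.51 over the targets and -0.02 over all genes. An unadjusted p-value under 0.05 was reached by FIT2, FIT3, FET3 and FTH1, 4 of the 10 genes, and by 17.6% of all genes tested. With DESeq2, the tool of the study, FET3, FIT2 and FIT3 were called, where 9.88% of 6851 genes were called and 2.67% as higher in low. With all 10 libraries only FET3 was called among the 10 genes, against 3.55% of 6374 genes, 0.706% as higher in low. None was called in edgeR without H1_2709, where 1.75% of genes were called. None was called either with libraries of the same code as pairs in the 8 libraries, where 1.49% were. With such pairs in all 10 libraries, edgeR called FET3 alone of the 10 genes (0.87, adjusted p = 0.0052), and 248 genes in all. Without L2_2709, 3 of the 10 genes were called (FET3, FTR1 and SIT1), where 4.24% of all genes were.

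**Figure D2:**
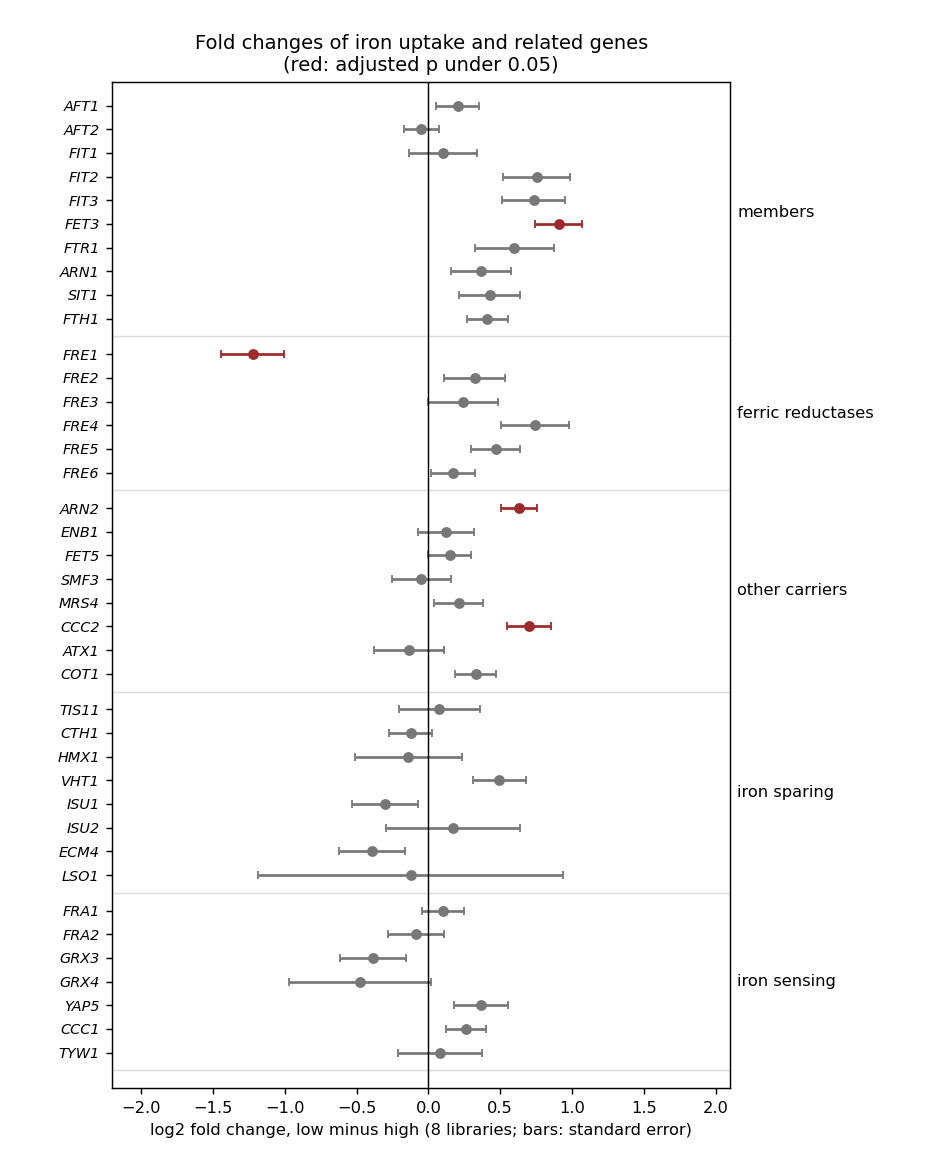
Log2 fold change, low minus high, in the 8 libraries (horizontal axis; points are edgeR estimates, bars 1 standard error) for the 10 iron uptake genes and 4 lists of related genes; red marks an adjusted p under 0.05. FET3, ARN2 and CCC2 lie to the right of 0 and FRE1 to the left, and among the 10 genes only AFT2, at -0.05, lies below 0.

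The regulators themselves were not called. AFT1 was at 104, 91.8, 96.3, 82.0 and 95.9 CPM in the high libraries, at 97.7 (L1_2609), 93.8 (L2_2709) and 133 (L_2909) CPM in the low libraries used, and at 112 (L2_2609) and 159 (L1_2709) CPM in the left-out ones. The groups overlapped, with the 3 highest values in low libraries. The log2 fold change was 0.21 (SE 0.15, adjusted p = 0.55). AFT2, the paralogue that acts on an overlapping set of targets, was at 65.7, 66.8, 70.0, 64.4 and 57.4 CPM in high, at 62.5, 60.4 and 64.5 CPM in the low libraries used, and at 52.2 and 103 CPM in L2_2609 and L1_2709. Its log2 fold change of -0.05 (SE 0.12, adjusted p = 0.89) leaves a range of 2 SE from -0.29 to 0.19, and with all 10 libraries the sign turned, to 0.08. Both regulators had their highest level in L1_2709. These are transcript levels, whereas Aft1 is known to be controlled mainly through its place in the cell. From imaging of tagged proteins, the paper names Rcs1 (Aft1) as a factor whose localisation was specific to the low proline subpopulation. Protein was not measured in the libraries used here.

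The 3 cell wall genes behaved unequally. FIT2 was at 24.6, 27.2, 22.3, 42.7 and 37.3 CPM in high and at 57.2, 47.5 and 50.8 CPM in the low libraries used, with 44.7 and 47.0 CPM in L2_2609 and L1_2709. Every low library, left-out ones included, was above every high library, which held for 1.8% of genes tested in all 10 libraries and for 4.78% in the 8. Its log2 fold change was 0.75 (SE 0.23) and missed the threshold in edgeR (adjusted p = 0.11), while DESeq2 gave an adjusted p of 0.042. FIT3 was at 94.6, 85.6, 71.5, 117 and 89.9 CPM in high, at 115, 131 and 211 CPM in the low libraries used, and at 119 and 129 CPM in the left-out ones. Only H2_2709 among the high libraries reached the low range. The log2 fold change was 0.73 (SE 0.22, adjusted p = 0.098), and the adjusted p of DESeq2 was 0.032. Without L_2909 the log2 fold change was 0.42 (adjusted p = 0.25). FIT1 was at 21.0, 20.7, 19.2, 17.3 and 22.6 CPM in high, at 17.2, 29.3 and 18.3 CPM in the low libraries used, and at 21.9 and 15.6 CPM in the left-out ones. Here the groups overlapped throughout, L2_2709 alone lying above the high range. Its log2 fold change of 0.10 (SE 0.24, adjusted p = 0.88) fell to -0.18 without L2_2709, although FIT1 shares the stretch printed above with FIT3.

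Of the high-affinity pair for reduced iron, FET3 was called and FTR1 was not. FET3 was at 289, 363, 377, 434 and 379 CPM in high, at 647, 585 and 835 CPM in the low libraries used, and at 621 and 666 CPM in L2_2609 and L1_2709. The groups did not overlap in the 8 or the 10 libraries, which held in this direction for 4.78% and 1.8% of genes tested. The log2 fold change was 0.91 (SE 0.16, adjusted p = 0.015) in the 8 libraries and 0.87 (adjusted p = 0.0040) in all 10. By log2 fold change it ranked 24th of the 54 genes called as higher in low. The call was lost without H1_2709 (0.91, adjusted p = 0.052) and when libraries of the same code were treated as pairs in the 8 libraries (0.91, adjusted p = 0.079), with the size unchanged to this precision in both. FTR1 was at 45.2, 69.7, 57.8, 63.3 and 61.8 CPM in high and at 89.0, 49.5 and 131 CPM in the low libraries used, with 81.8 and 72.2 CPM in the left-out ones. L2_2709 lay within the high range and the other 4 low libraries above it. The log2 fold change was 0.60 (SE 0.27, adjusted p = 0.30), and 0.89 without L2_2709 (adjusted p = 0.04998, barely past the threshold). CCC2 encodes the copper pump that loads Fet3 with its metal. It was at 95.1, 92.9, 79.3, 91.9 and 73.7 CPM in high and at 158, 153 and 110 CPM in the low libraries used, but at 151 and 75.2 CPM in L2_2609 and L1_2709. It was higher in low in the 8 libraries (log2 fold change 0.70, SE 0.15, adjusted p = 0.031) and not called in all 10 (0.58, adjusted p = 0.16). The call was also lost in 6 of the 8 fits that leave out 1 library, at adjusted p of 0.057 to 0.095, and held without H1_2609 and without L_2909.

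Of the siderophore transporters, ARN1 and SIT1 had a wide spread in low. ARN1, a transporter of ferrichrome-type siderophores, was at 65.3, 56.1, 55.4, 60.3 and 61.5 CPM in high, at 72.6, 51.8 and 105 CPM in the low libraries used, and at 71.0 and 56.6 CPM in L2_2609 and L1_2709. The low values lay on both sides of the high ones (log2 fold change 0.36, SE 0.21, adjusted p = 0.42). SIT1 (ARN3), which takes up ferrioxamine B, was at 94.1, 94.6, 73.4, 85.4 and 82.6 CPM in high, at 122, 73.0 and 150 CPM in the low libraries used, and at 164 and 152 CPM in the left-out ones. Apart from L2_2709, the lowest of all 10 libraries, every low library exceeded every high one. Its log2 fold change was 0.43 (SE 0.21, adjusted p = 0.34), and 0.67 without L2_2709 (adjusted p = 0.048). ARN2, which belongs to the same family and was not among the 10, was at 131, 137, 138, 151 and 108 CPM in high, at 198, 201 and 216 CPM in the low libraries used, and at 304 and 312 CPM in L2_2609 and L1_2709. It did not overlap in the 8 or the 10 libraries, which held in this direction for 4.78% and 1.8% of genes tested. Low exceeded high for ARN2 by 0.63 on the log2 scale (SE 0.12, adjusted p = 0.022) in the 8 libraries and by 0.89 (adjusted p = 0.0094) in all 10. That call was lost without H1_2709 and without L_2909, at adjusted p of 0.067 and 0.052. With libraries of the same code as pairs, it was lost in the 8 libraries (adjusted p = 0.15). It held with such pairs in all 10 libraries (0.87, adjusted p = 0.0096). The fourth transporter of the family, ENB1, was at 90.2 ± 17.0 CPM (SD, n = 5) in high and 97.9 ± 22.4 CPM (SD, n = 3) in low (log2 fold change 0.12, adjusted p = 0.83).

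FTH1, the permease that moves iron out of the vacuole, was at 177, 195, 178, 191 and 139 CPM in high and at 202, 272 and 226 CPM in the low libraries used. In the left-out L2_2609 it was at 213 CPM, and in L1_2709 at 158 CPM, within the high range. The 8 libraries did not overlap, as for 4.78% of genes tested in this direction, and the 10 did. The log2 fold change was 0.41 (SE 0.14, adjusted p = 0.16). Its oxidase partner FET5 had 109 ± 12.8 CPM (SD, n = 5) in high and 121 ± 20.8 CPM (SD, n = 3) in low (log2 fold change 0.15, adjusted p = 0.69).

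**Figure D3:**
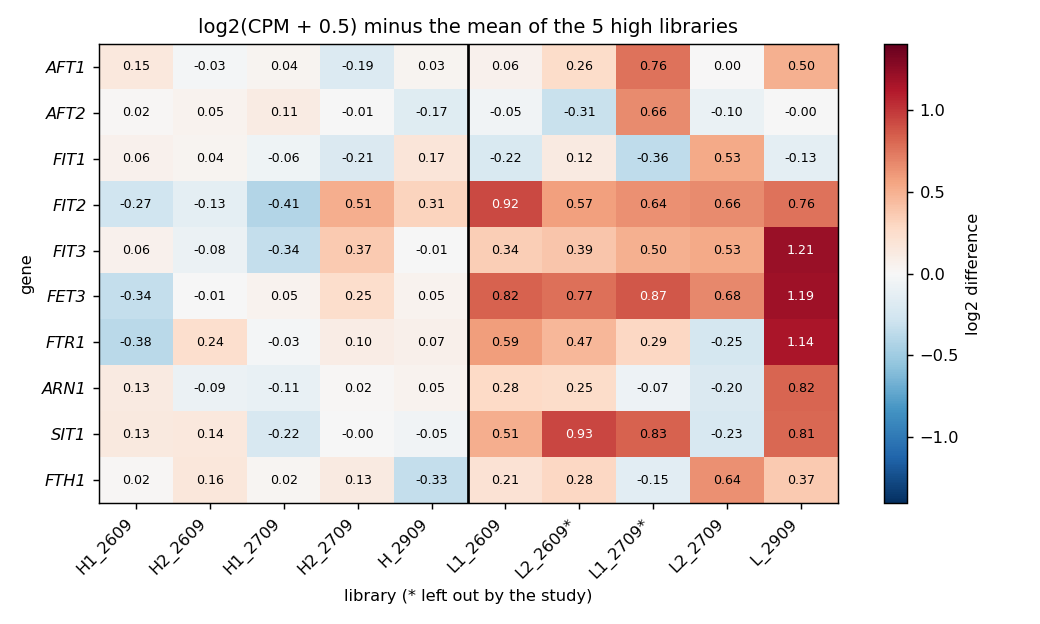
Difference of log2(CPM + 0.5) from the mean of the 5 high libraries for each of the 10 genes (rows) and libraries (columns; asterisks mark those left out by the study), with colour and printed value giving the log2 difference. FET3, FIT2 and FIT3 are above 0 in each of the 5 low libraries, and so is AFT1, though only just in L2_2709. L_2909 holds the largest values of FIT3, FET3, FTR1 and ARN1, and L2_2709 is below 0 for FTR1, ARN1 and SIT1.

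The spread between libraries was not the same for each gene. In high, the SD of log2(CPM + 0.5) was 0.39 for FIT2, and 81.4% of the 4373 genes with a mean of at least 30 CPM varied less. FIT3 had an SD of 0.26, FTR1 of 0.23 and FET3 of 0.21, near the median gene at 0.21. ARN1, AFT2 and AFT1 were the steadiest, with SDs of 0.10, 0.11 and 0.12 and only 9.22%, 11.7% and 18.6% of genes below them. In the 5 low libraries the order was different. FTR1, SIT1 and ARN1 were now the most variable, with SDs of 0.50, 0.47 and 0.39 against a median of 0.32 for all such genes, and 79.5%, 76.2% and 65.5% of genes varied less. FIT2 had the smallest spread of the 10 genes in low, at 0.14, and FET3 had 0.20. No test was made of these spreads. The low libraries also had more genes without counts, and the part of library quality in their spread was not tested.

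Individual libraries shifted several targets at once. L_2909 was the highest low library for 4 of the 8 targets, on average 0.31 (log2) above the low mean. L2_2709 was the lowest for 4 of them (FET3, FTR1, ARN1 and SIT1), yet the highest for FIT1 and FTH1. In high, H1_2709 was the lowest library for 4 of 8 targets at a mean difference of -0.14 from the high mean. H2_2609 and H2_2709 were each the highest for 3, at mean differences of 0.03 and 0.14. The targets therefore did not move as 1 block from library to library.

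High and low libraries that carry the same code in their titles were also set side by side, on log2(CPM + 0.5), without taking them as pairs of 1 culture. Low was above high for FIT2, FIT3 and FET3 in 5 of 5 codes, as it was for 7.64% of genes tested. For FIT2 and FET3 this had to follow, since no low library overlapped the high range, and it adds nothing to that result. The differences of FET3 ran from 0.43 (code 2_2709) to 1.16 (1_2609), those of FIT2 from 0.15 (2_2709) to 1.20 (1_2609) and those of FIT3 from 0.16 (2_2709) to 1.22 (L_2909 against H_2909). AFT1, FTR1, ARN1, SIT1 and FTH1 were higher in low in 4 of 5, with the exception at code 2_2709 for FTR1, ARN1 and SIT1. AFT2 and FIT1 were higher in 2 of 5. By the last digits of the title, FET3 was higher in low by 0.97 in L1_2609 and L2_2609, by 0.63 in L1_2709 and L2_2709 and by 1.14 in L_2909, each against the high libraries of the same digits, while FTR1 gave 0.60, -0.02 and 1.08. What these digits stand for is not given in the labels.

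**Figure D4:**
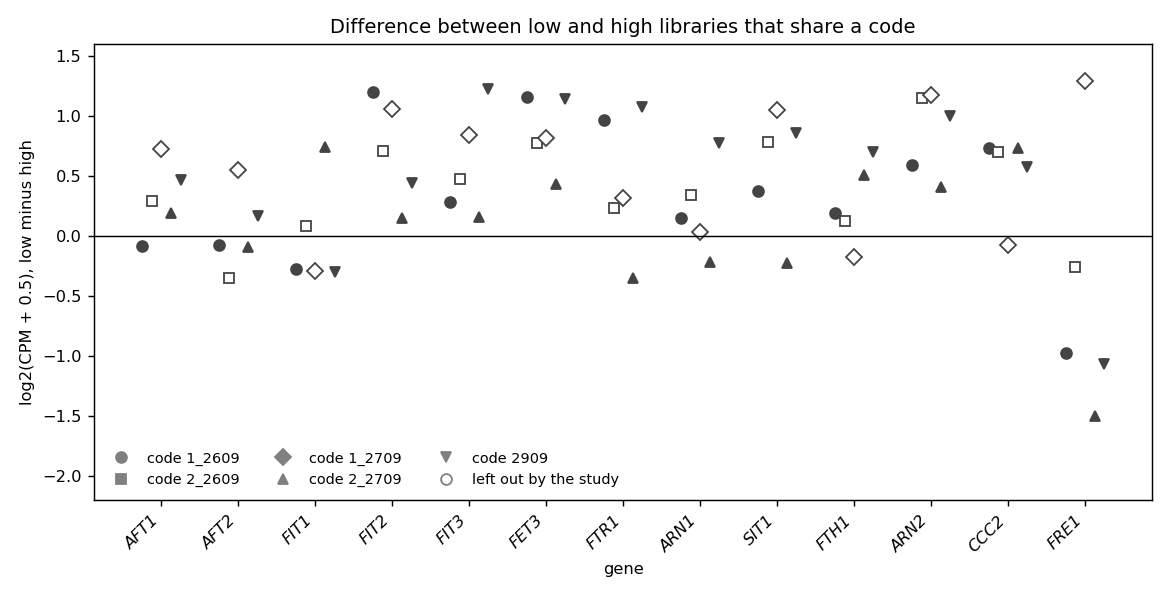
Difference of log2(CPM + 0.5) between the low and the high library of the same code (vertical axis) for the 10 genes and for ARN2, CCC2 and FRE1; hollow markers are codes whose low library the study left out. All 5 points of FIT2, FIT3, FET3 and ARN2 are above 0, and FRE1 ranges from -1.50 to 1.30. For FIT2, FET3 and ARN2 this follows from groups that do not overlap, whatever the codes.

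Other genes of iron use were counted in lists. Among 6 genes of the ferric reductase family, edgeR called FRE1 as lower in low and none of the other 5. DESeq2 also called FRE4 as higher. FRE1, the main cell surface enzyme together with FRE2, was at 24.1, 27.9, 24.6, 25.2 and 25.7 CPM in high and at 12.0, 8.57 and 12.1 CPM in the low libraries used, but at 23.2 and 61.0 CPM in L2_2609 and L1_2709. The groups did not overlap in the 8 libraries, which held for 10.7% of genes in this direction, but of the left-out libraries L2_2609 was just below the high range and L1_2709 above it. Its log2 fold change was -1.22 (SE 0.22, adjusted p = 0.015) in the 8 libraries and -0.13 (adjusted p = 0.95) in all 10. The call was lost without H1_2709 and without H2_2709, at adjusted p of 0.052 and 0.053. FRE4, a siderophore reductase, had 20.2 ± 1.87 CPM (SD, n = 5) in high and 33.6 ± 11.8 CPM (SD, n = 3) in low (log2 fold change 0.74, adjusted p = 0.12 in edgeR and 0.040 in DESeq2). All 5 low libraries, at 24.0 to 46.8 CPM, were above the high range of 18.3 to 23.1 CPM. That held for 1.8% of genes tested, and FRE4 was picked after its values were seen. Of 8 further iron and copper carriers, ARN2 and CCC2 were higher, as given above, and 6 were not called.

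No gene was called by edgeR in 4 lists. These were 8 iron-sparing genes switched on with the regulon or saving iron (median log2 fold change -0.12), 7 genes of iron sensing and vacuolar storage (0.08), 15 genes of iron-sulphur cluster assembly (0.07) and 17 enzymes that use iron (-0.16). In edgeR, 1, 0, 3 and 1 of them reached an unadjusted p under 0.05, as did 17.6% of all genes, and DESeq2 called 0, 0, 1 and 0. TIS11, which directs the breakdown of mRNAs for iron-using proteins, was at 42.5 ± 15.3 CPM (SD, n = 5) in high and 44.6 ± 1.46 CPM (SD, n = 3) in low. HMX1, the haem oxygenase, was at 50.7 ± 17.3 CPM and 46.0 ± 20.5 CPM. Both are Aft1 targets, and their log2 fold changes were 0.08 (adjusted p = 0.93) and -0.14 (adjusted p = 0.90). VHT1, the biotin transporter, is in the same list and had 94.5 ± 19.5 CPM (SD, n = 5) in high and 133 ± 16.7 CPM (SD, n = 3) in low (log2 fold change 0.49, adjusted p = 0.19). Its low libraries, 118 to 178 CPM over all 5, did not overlap the high range of 63.9 to 116 CPM. That held in this direction for 1.8% of genes tested, and VHT1 was picked after its values were seen. Among 15 genes for other metals, 13 were tested and edgeR called 1, and CUP1-1 and CUP1-2 had 0 counts in every library. DESeq2 called this gene and also SMF2, a manganese transporter, as lower in low (log2 fold change -0.50, adjusted p = 0.015, against -0.51 and 0.069 in edgeR). The gene called by both, FET4, encodes the low-affinity iron transporter. FET4 was at 42.2, 32.1, 37.2, 55.1 and 52.0 CPM in high and at 65.5, 96.6 and 91.3 CPM in the low libraries used, but at 47.2 and 17.0 CPM in the left-out L2_2609 and L1_2709. It was higher in low in the 8 libraries (log2 fold change 0.95, SE 0.21, adjusted p = 0.032) and not called in all 10 (0.54, adjusted p = 0.57). This call too was lost in 6 of the 8 fits without 1 library, at adjusted p of 0.053 to 0.094, and held without H_2909 and without L1_2609.

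Genes with the motif were counted whatever their function. Of 135 tested genes with TGCACCC in the window, 5 were called as higher in low (ARN2, CCC2, FET3, FET4 and RKM5) and 2 as lower, where 0.832% and 4.33% of all genes were, and the median log2 fold change was 0.07. FET3, ARN2, CCC2 and FET4 are the iron genes already given above, so their calls are no separate result. In all 10 libraries, 3 were called as higher and 2 as lower. Without the 10 genes, 4 of 128 were higher and 2 lower in the 8 libraries, and 2 and 2 in all 10. GCACCC, which all 8 targets carry, gave 10 higher and 16 lower of 441 tested genes in the 8 libraries, with a median of 0.02. CACCC gave 22 higher and 69 lower of 1951, with a median of -0.0018.

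The genes whose profile over the 10 libraries lay nearest to the mean profile of the 8 targets were sought among 5351 genes outside the lists. Nearness was the root mean square difference of centred log2(CPM + 0.5). The nearest were UCC1, UBA4, CWC27, CSS2 and PTK1, at 0.12, 0.13, 0.13, 0.13 and 0.13, against a median of 0.44 over all candidates. None of the 5 was called, and their log2 fold changes were 0.34 to 0.44. The targets themselves, each part of that mean, lay at 0.19 (FIT3) to 0.39 (FIT1), also below 0.44. The 5 genes were picked as the smallest of 5351 values, so their being nearer than the targets tells nothing about the regulon.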

How the data were processed

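Reads from Novogene libraries were filtered by the authors for adaptors and quality and mapped with HISAT2 to the Ensembl genome. The authors deposited raw counts per gene and FPKM values, which equal counts over gene length and over library total, times 1 factor per library; the deposited tables also give gene coordinates and lengths (unit other). The counting tool and the use of strand are not given in the sources used here. Of 7252 gene identifiers, 6048 are shared with the R64 reference, 6036 with identical start and end.

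Low was compared with high in R 4.3.3 with edgeR 4.0.16 (filterByExpr, TMM, quasi-likelihood test, Benjamini-Hochberg adjustment over 6492 genes, threshold 0.05) in the 8 libraries the study used, without covariates. CPM used TMM factors over all 10 libraries, and the pseudocount on the log2 scale was 0.5. Alternatives were other filters and scalings, DESeq2 1.42.0, limma 3.58.1 (voom, and log2 of FPKM plus 1 or 0.1), all 10 libraries, replicate blocks and each library left out; 2 fits that add back 1 left-out library were chosen after seeing the data. The members and gene lists were chosen with earlier results of these data known. Genes named are the 10 members, genes of the other 9 lists with an adjusted p under 0.05, and the 5 nearest in profile; FRE4, ENB1, FET5, TIS11, HMX1, VHT1 and SMF2 were added after their values were seen. The fits were tested on simulated counts. No 2 libraries of a group were duplicates. The closest 2, H1_2709 and H2_2709, had a chi-square per degree of freedom of 36.4, and the next closest 2 high libraries 128. Whether H1_2709 and H2_2709 came from separate cultures is not given. Counts are reads without molecular identifiers, so the depth covers counting error only.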

Additional observations from a re-analysis of the deposited data

Results flagged for a closer look

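In 28 groups of 5 libraries (the 10 genes, ARN2, CCC2, FRE1 and FET4, each in high and in low), 3 had 1 library far from the others, where chance gives about 1 in 20. AFT2 was at 102.74 CPM in L1_2709, against 52.2 to 64.5 CPM in the other low libraries. FIT3 was at 210.58 CPM in L_2909, against 115 to 131 CPM in the others. FRE1 was at 61.0 CPM in L1_2709, against 8.57 to 23.2 CPM in the others. L1_2709 was left out by the study and is not in the main comparison, and without L_2909 the log2 fold change of FIT3 went from 0.73 to 0.42, uncalled in both.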

How the results depend on the processing

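FET3 was called in 21 of 23 fits, with log2 fold changes of 0.74 to 1.02, ARN2 in 20, FRE1 in 16, FET4 in 12 and CCC2 in 11. Genes called, 335 in the main comparison, came to 677 with DESeq2, 97 with the replicate block in 8 libraries and 113 to 437 with each library left out (113 without H1_2709, 119 without H2_2709 and 211 without H2_2609). Members called came to 3 with DESeq2 and 0 to 3 with each library left out. With the replicate block they came to 0 in 8 libraries and 1 in all 10. AFT2 turned sign in all 10 libraries (0.079), with the replicate block in 8 (0.0024) and in 10 libraries (0.042), and with L1_2709 added (0.16). FIT1 turned sign with the replicate block in 10 libraries (-0.012), without L2_2709 (-0.18) and with L1_2709 added (-0.0047), and its range with each library left out was -0.18 to 0.24. The cause was not tested. Libraries of the same code are not known to be pairs. Over genes of at least 30 CPM their deviations correlated at r of 0.27, 0.29 and 0.099 in the 8 libraries, 1 of them under the limit of 0.1. In all 10 libraries r was 0.39, 0.11, 0.39, 0.60 and 0.018, with 1 again under it, and 7 of 10 libraries correlated best with their own code. The block also ended the calls of ARN2, CCC2, FRE1 and FET4 in the 8 libraries, which hold only 3 such pairs. With the block in all 10 libraries, FET3 and ARN2 were called and CCC2, FRE1 and FET4 were not.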

Other observations

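Ratios of counts between genes of a pair do not depend on library scaling, and 5 were computed after the values were seen. The log2 ratio of FET3 to FTR1 was 2.63 in the 5 high libraries (SD 0.15) and 3.03 in the 3 low libraries used (SD 0.47), with a two-sided exact permutation p of 0.143 (0.25 adjusted over the 5 ratios, where 0.0357 is the smallest p this design allows). In all 10 libraries the difference was 0.41, with an exact permutation p of 0.0317 and 0.0926 adjusted. None of the other ratios (FTH1 to FET5, FIT3 to FIT1, FIT2 to FIT1 and ARN2 to ARN1) had an adjusted p under 0.05 in the 8 or the 10 libraries, by the same exact permutation test. In the 8 libraries a single ratio at the smallest possible p could not pass after adjustment over 5, so the test there decides little.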
